A study of Homo sapiens with 3 samples.

Results

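The 10 genes described here encode the kinases and Ras activators of the phorbol ester pathway: the conventional protein kinase C (PKC) genes PRKCA and PRKCB, the calcium-independent PKC genes PRKCD, PRKCE, PRKCH and PRKCQ, the protein kinase D gene PRKD2, and the Ras guanyl-releasing protein genes RASGRP1, RASGRP2 and RASGRP3. They were taken by symbol. Every probe set whose platform annotation names exactly 1 of these genes was included, which gave 31 of 54613 probe sets and 10 of 19775 genes. Each array held cells of THP-1, an established human monocytic leukemia line that grows in suspension and takes on macrophage features when treated with the phorbol ester PMA (phorbol myristate acetate). There was 1 array for each of 3 groups: undifferentiated THP-1 cells, 3-day PMA cells and 8-day PMA cells, named here by their labels. The labels' protocols give 200 nM PMA at the start of either treatment. The 3-day culture had 24 h of PMA and 3 further days without it, which is longer than its label. The 8-day culture had 72 h of PMA and 5 further days without it. Length of exposure, time since PMA and time in culture therefore changed together and cannot be told apart. All 3 cultures grew in 10% serum. The cultures were moved to 2% serum 16 h before lysis, and the protocol does not say whether undifferentiated cells were included. If they were not, serum and PMA differed together and cannot be told apart. All cultures came from 1 cell line, with no second culture of any group.

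PKC proteins are receptors through which PMA acts. Diacylglycerol, a lipid second messenger made by phospholipase C, recruits these proteins to membranes by binding their C1 domains, and PMA takes its place there. Conventional PKCs also need calcium, the calcium-independent ones do not, and atypical PKCs answer to neither calcium nor diacylglycerol. RASGRP proteins carry a C1 domain as well and load Ras or Rap GTPases with GTP, and protein kinase D is activated by PKC. Long exposure to phorbol esters is known to deplete PKC proteins of both classes by degradation. The arrays measured RNA, so protein levels and kinase activity are not part of these data.

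The RASGRP genes differed between PMA-treated and undifferentiated cells in opposite directions. RASGRP2 was 13.7-fold lower in 3-day PMA cells than in undifferentiated cells, RASGRP3 was 4.90-fold higher, and RASGRP1 was at least 2.58-fold higher. Of the kinases, by the probe set that stood for each gene, PRKCA and PRKCB were lower by at least 2-fold in 3-day PMA cells and PRKCE in 8-day PMA cells. These calls depend on the probe set and the floor. Another PRKCA probe set was level in 3-day PMA cells (log2 0.024). Other PRKCB probe sets passed 2-fold in 8-day PMA cells too (log2 -1.22 and -1.43). The 8-day PMA signal of PRKCE lay just above the floor. PRKCD, PRKCH, PRKCQ and PRKD2 stayed within 2-fold in all 3 comparisons by the probe set that stood for each gene. No PKC gene was 2-fold higher on either PMA array.

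Values are MAS5 signals, the linear brightness that Affymetrix software gives for a probe set, and a log2 ratio is that of the signals on 2 arrays. A difference of at least 2-fold is called higher or lower. Signals below a floor of 149.8, which is the median over the whole of the 3 arrays, were raised to the floor before a ratio was taken, and a ratio with 1 array at the floor is a lower bound, written "at least". The brightest probe set stood for a gene. Without replicates no test between conditions could be made and no error over cultures is known. The one spread that could be measured was that of log2 ratios among probe sets of the same gene, with an SD of 0.430 for 3-day PMA relative to undifferentiated cells, 0.444 for 8-day PMA relative to undifferentiated cells and 0.265 for 8-day relative to 3-day PMA cells, from 5180 genes. It leaves out differences between cultures. On bulk RNA, fewer cells that express a gene and less RNA per cell cannot be told apart. Signals of different probe sets are not comparable as RNA amounts, so levels are compared only within a probe set. Sums over a marker list describe that list from array to array and say nothing of how its genes compare.

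The arrays were alike in the share of probe sets above the floor and in 3' to 5' ratios, but less so in the poly-A controls. The share of probe sets above the floor was 48.5% to 51.4%, and the ratio of 3' to 5' signal was 1.36 to 1.49 for actin and 1.10 to 1.16 for GAPDH. The spiked poly-A labelling controls gave median log2 ratios of 0.31 in 3-day PMA relative to undifferentiated cells, 0.020 in 8-day PMA relative to undifferentiated cells and -0.29 in 8-day relative to 3-day PMA cells. Over all genes the log2 ratios had a median of -0.12 in 3-day PMA relative to undifferentiated cells, -0.072 in 8-day PMA relative to undifferentiated cells and 0.036 in 8-day relative to 3-day PMA cells. With scaling to the poly-A controls these medians were -0.39 for 3-day PMA relative to undifferentiated cells, -0.089 for 8-day PMA relative to undifferentiated cells and 0.30 for 8-day relative to 3-day PMA cells. Of the monocyte and macrophage markers, CD14, ITGAM, LYZ and CSF1R were above the floor on all 3 arrays. FCGR1A was not above it on any array, and SPI1 was above it only in 3-day PMA cells (162) and 8-day PMA cells (175).

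**Figure D1:**
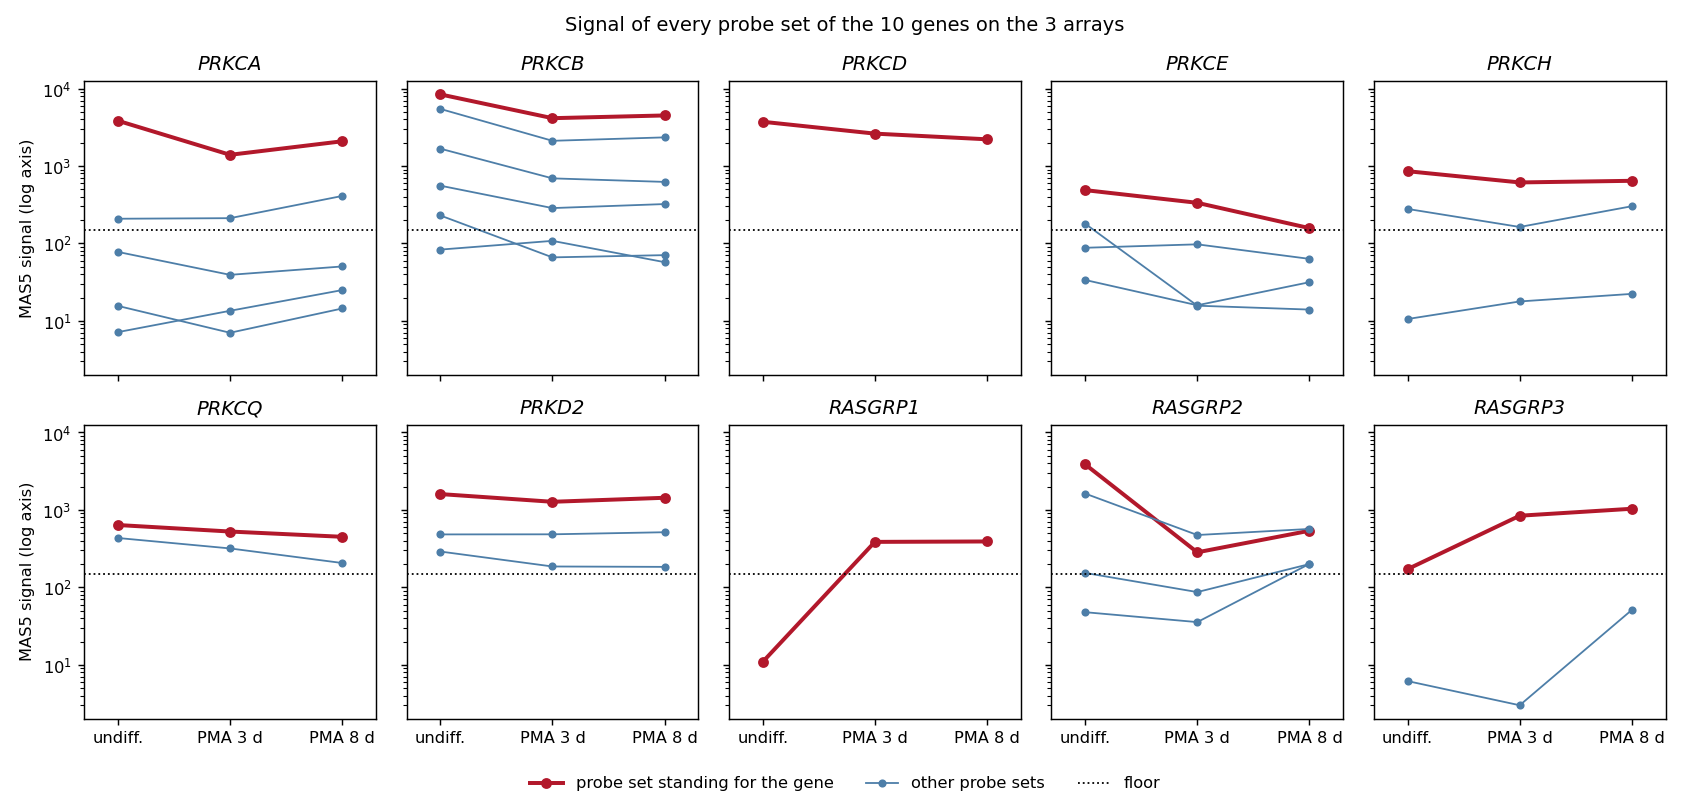
MAS5 signal (vertical log axis) of all 31 probe sets of the 10 genes on the undifferentiated, 3-day PMA and 8-day PMA arrays, with the probe set standing for the gene in red, the others in blue and the floor of 149.8 as a dotted line. Each point is 1 array. RASGRP2 drops to 283 in 3-day PMA cells and RASGRP1 and RASGRP3 climb, while most PKC lines slope downwards by less.

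Of the 31 probe sets, 18 were above the floor on all 3 arrays, 5 on some and 8 on none. The 8 that stayed below it carry no ratio: 3 of PRKCA (206923_at, 215194_at and 1560074_at), 2 of PRKCE (206248_at and 234089_at) and 1 each of PRKCB (230437_s_at), PRKCH (230124_at) and RASGRP3 (244526_at). PRKCD and RASGRP1 had 1 probe set each, the other 8 genes between 2 and 6. In all, 22 probe sets gave a ratio in 3-day PMA relative to undifferentiated cells, 18 of them below 0 and 4 above. In 8-day PMA relative to undifferentiated cells 23 gave a ratio, 16 below 0 and 7 above. In 8-day relative to 3-day PMA cells 21 did, 6 below 0 and 15 above. Probe sets of 1 gene are not independent of each other, although they can disagree, as those of PRKCA and RASGRP2 did.

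At the level of genes, 3 of the 10 were lower and 2 higher in 3-day PMA cells than in undifferentiated cells, where 10.7% of 13319 tested genes were lower and 10.3% higher. In 8-day PMA relative to undifferentiated cells 2 were lower and 2 higher, against 8.39% lower and 9.72% higher of 13582 tested genes. In 8-day relative to 3-day PMA cells 1 of the 10 was lower and none higher, against 0.934% lower and 1.37% higher of 13066 tested genes. Their median log2 ratio was -0.50 in 3-day PMA relative to undifferentiated cells, beside -0.12 for all genes, and -0.63 in 8-day PMA relative to undifferentiated cells, beside -0.072. In 8-day relative to 3-day PMA cells it was 0.093, beside 0.036. The comparisons with undifferentiated cells share that array and are not independent of each other.

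Among the RASGRP genes, RASGRP2 encodes CalDAG-GEFI, a calcium-regulated activator of RAP1 known for integrin activation in platelets and leukocytes. Its C1 domain is regarded as a weak binder of phorbol esters. The brightest probe set, 208206_s_at, had 3878 signal units in undifferentiated cells, 283 in 3-day PMA cells and 539 in 8-day PMA cells. Both PMA arrays were far below the undifferentiated one, and the 8-day PMA array was between the others. 3-day PMA relative to undifferentiated cells gave a log2 ratio of -3.77, which is 13.7-fold lower, and 8-day PMA relative to undifferentiated cells gave -2.85, 7.20-fold lower. Only 29 of the 13319 genes tested, RASGRP2 included, were as low or lower in 3-day PMA cells, or 0.218%, and 87 of 13582 in 8-day PMA cells, or 0.641%.

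Between the PMA arrays RASGRP2 stood 1.90-fold higher in 8-day PMA cells than in 3-day PMA cells (log2 ratio 0.93), short of 2-fold, although 249 of 13066 genes, 1.91%, had a ratio as high. This ratio passed 2-fold when scaled to the poly-A controls (log2 1.21) and with the median of probe sets (log2 1.07). By the second-brightest probe set it was only 0.26. The second probe set of RASGRP2, 214369_s_at, had 1626 in undifferentiated cells, 474 in 3-day PMA cells and 568 in 8-day PMA cells. It went the same way by less: 3.43-fold lower in 3-day PMA cells (log2 -1.78) and a log2 ratio of -1.52 in 8-day PMA cells, both over undifferentiated. The remaining probe sets of RASGRP2 were dim. 214367_at had 154 in undifferentiated cells, 86.9 in 3-day PMA cells and 199.9 in 8-day PMA cells, and 214368_at had 47.8 in undifferentiated cells, 35.6 in 3-day PMA cells and 201 in 8-day PMA cells. They lie near the floor and do not carry the decrease: in 8-day PMA relative to undifferentiated cells 214367_at gave a log2 ratio of 0.38 and 214368_at at least 0.42. The size of the RASGRP2 difference thus depends on the probe set, and the direction rests on the 2 bright ones.

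RASGRP3, an activator of Ras and Rap best known from B cells, had the opposite course. Probe set 205801_s_at had 172 in undifferentiated cells, 841 in 3-day PMA cells and 1035 in 8-day PMA cells. The undifferentiated value lies just above the floor, and both PMA arrays lie well above it. RASGRP3 was 4.90-fold higher in 3-day PMA cells (log2 2.29) and 6.02-fold higher in 8-day PMA cells (log2 2.59), each over undifferentiated cells. As high or higher were 374 of 13319 genes (2.81%) in 3-day PMA cells and 251 of 13582 (1.85%) in 8-day PMA cells. With a floor at the 60th percentile of all values the undifferentiated signal falls below it, and the log2 bounds were at least 1.69 in 3-day PMA cells and at least 1.99 in 8-day PMA cells. With the median of its probe sets RASGRP3 was within 2-fold in 8-day PMA cells (a log2 bound of 0.62) and not above the floor in 3-day PMA relative to undifferentiated cells, and without _s_at probe sets it had no value. Its other probe set, 244526_at, was below the floor throughout, with 6.17 in undifferentiated cells, 3.01 in 3-day PMA cells and 51.2 in 8-day PMA cells. The PMA arrays differed by a log2 ratio of 0.30 (8-day relative to 3-day PMA cells).

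RASGRP1, the Ras activator of T-cell receptor signalling, was read by 205590_at alone. It had 10.9 in undifferentiated cells, 387 in 3-day PMA cells and 391 in 8-day PMA cells. RASGRP1 was thus not above the floor in undifferentiated cells and above it on both PMA arrays, which were level with each other (log2 ratio 0.018). The bounds were at least 2.58-fold higher in 3-day PMA cells (log2 1.37) and at least 2.61-fold higher in 8-day PMA cells (log2 1.39). With the floor at the 60th percentile, a signal of 261, the log2 bounds were 0.57 in 3-day PMA cells and 0.58 in 8-day PMA cells, under 2-fold. With the floor at the 40th percentile, a signal of 94.5, they were 2.03 in 3-day PMA cells and 2.05 in 8-day PMA cells. The call rests on the floor because the fold itself cannot be measured.

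RASGRP1 and PRKCQ are best known from T cells, and RASGRP2 is abundant in platelets, so markers of those cells were followed. Of 8 T-cell markers, 1 was above the floor in undifferentiated cells (CD247, 155), 3 in 3-day PMA cells (LCK, CD247 with 210 and CD2 with 157) and none in 8-day PMA cells. CD3D, CD3E and CD3G were not above the floor on any array. The summed signal of the 8 was 562 in undifferentiated cells, 833 in 3-day PMA cells and 549 in 8-day PMA cells. In 8-day PMA cells RASGRP1 had 391 and all 8 T-cell markers were below the floor, LCK narrowly. LCK had 24.7 in undifferentiated cells, 354 in 3-day PMA cells and 149.2 in 8-day PMA cells, against a floor of 149.8. Of 5 B-cell markers with a probe set, 3 were above the floor on each array (CD79A, CD79B and PAX5), with sums of 1451 in undifferentiated cells, 1321 in 3-day PMA cells and 1345 in 8-day PMA cells. The 4 NK-cell markers summed to 950.1 in undifferentiated cells, 1621 in 3-day PMA cells and 3734 in 8-day PMA cells. Of these GNLY had 138 in undifferentiated cells, 1296 in 3-day PMA cells and 3359 in 8-day PMA cells. NKG7 went the other way, with 587 in undifferentiated cells, 256 in 3-day PMA cells and 337 in 8-day PMA cells. NCR1 and KLRD1 were not above the floor on any array, so the rise of the NK-cell sum is that of GNLY. The 6 platelet and megakaryocyte markers summed to 894 in undifferentiated cells, 4199 in 3-day PMA cells and 6369 in 8-day PMA cells. PPBP, a platelet chemokine, had 4.49 in undifferentiated cells, 3249 in 3-day PMA cells and 5557 in 8-day PMA cells. PF4, another platelet chemokine, had 80.7 in undifferentiated cells, 409 in 3-day PMA cells and 283 in 8-day PMA cells, at least 2.73-fold higher in 3-day and at least 1.89-fold higher in 8-day PMA cells. GP9, a platelet glycoprotein, had 277 in undifferentiated cells, 104 in 3-day PMA cells and 43.2 in 8-day PMA cells, and the platelet integrin gene ITGA2B had 196 in undifferentiated cells, 145 in 3-day PMA cells and 190.5 in 8-day PMA cells. Their part in the RASGRP values was not tested.

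The conventional PKC genes were lower on both PMA arrays by their brightest probe sets. PRKCB encodes the isoform that links the B-cell receptor to NF-kB and is prominent in blood cells. Probe set 209685_s_at of PRKCB had 8399 in undifferentiated cells, 4140.1 in 3-day PMA cells and 4489.8 in 8-day PMA cells. The PMA arrays were close to each other and lay near the 2-fold line. The decrease was 2.03-fold in 3-day PMA cells (log2 -1.02) and 1.87-fold in 8-day PMA cells (log2 -0.90), each over undifferentiated. The value in 3-day PMA cells passes 2-fold narrowly: centred on the median of all genes it was -0.90.

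Other probe sets of PRKCB agree on the direction and vary in size. 207957_s_at had 5452 in undifferentiated cells, 2113 in 3-day PMA cells and 2340.4 in 8-day PMA cells, with log2 ratios over undifferentiated of -1.37 in 3-day and -1.22 in 8-day PMA cells. 227817_at had 1673 in undifferentiated cells, 692 in 3-day PMA cells and 623 in 8-day PMA cells, with ratios of -1.27 in 3-day and -1.43 in 8-day PMA cells. 228795_at had 557 in undifferentiated cells, 286 in 3-day PMA cells and 322 in 8-day PMA cells, with ratios of -0.96 in 3-day and -0.79 in 8-day PMA cells. All 4 probe sets above the floor on the 3 arrays were lower on both PMA arrays than on the undifferentiated one. Another, 227824_at, had 229.6 in undifferentiated cells and was below the floor in 3-day PMA cells (66.1) and 8-day PMA cells (70.6), a bound of -0.62 for both. In 3-day PMA cells 1366 of 13319 genes, 10.3%, had a ratio as low as that of 209685_s_at.

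PRKCA, the most widely expressed conventional isoform, was read in different ways by its probe sets. 213093_at had 3838 in undifferentiated cells, 1393 in 3-day PMA cells and 2083 in 8-day PMA cells. The 8-day PMA value lay between the others, 1.49-fold higher than in 3-day PMA cells (log2 0.58). PRKCA was 2.75-fold lower in 3-day PMA cells (log2 -1.46) and 1.84-fold lower in 8-day PMA cells (log2 -0.88), each over undifferentiated. The second probe set, 215195_at, was dimmer, with 208 in undifferentiated cells, 212 in 3-day PMA cells and 409.8 in 8-day PMA cells. Its log2 ratios over undifferentiated were 0.024 in 3-day PMA cells and 0.98 in 8-day PMA cells, so that in 8-day PMA cells it lay on the other side of 0. Both probe sets were higher in 8-day PMA cells than in 3-day PMA cells, by log2 0.58 for 213093_at and 0.95 for 215195_at. The 3 further probe sets of PRKCA were below the floor on every array, and the 2 listed for the antisense gene PRKCA-AS1 were too.

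**Figure D2:**
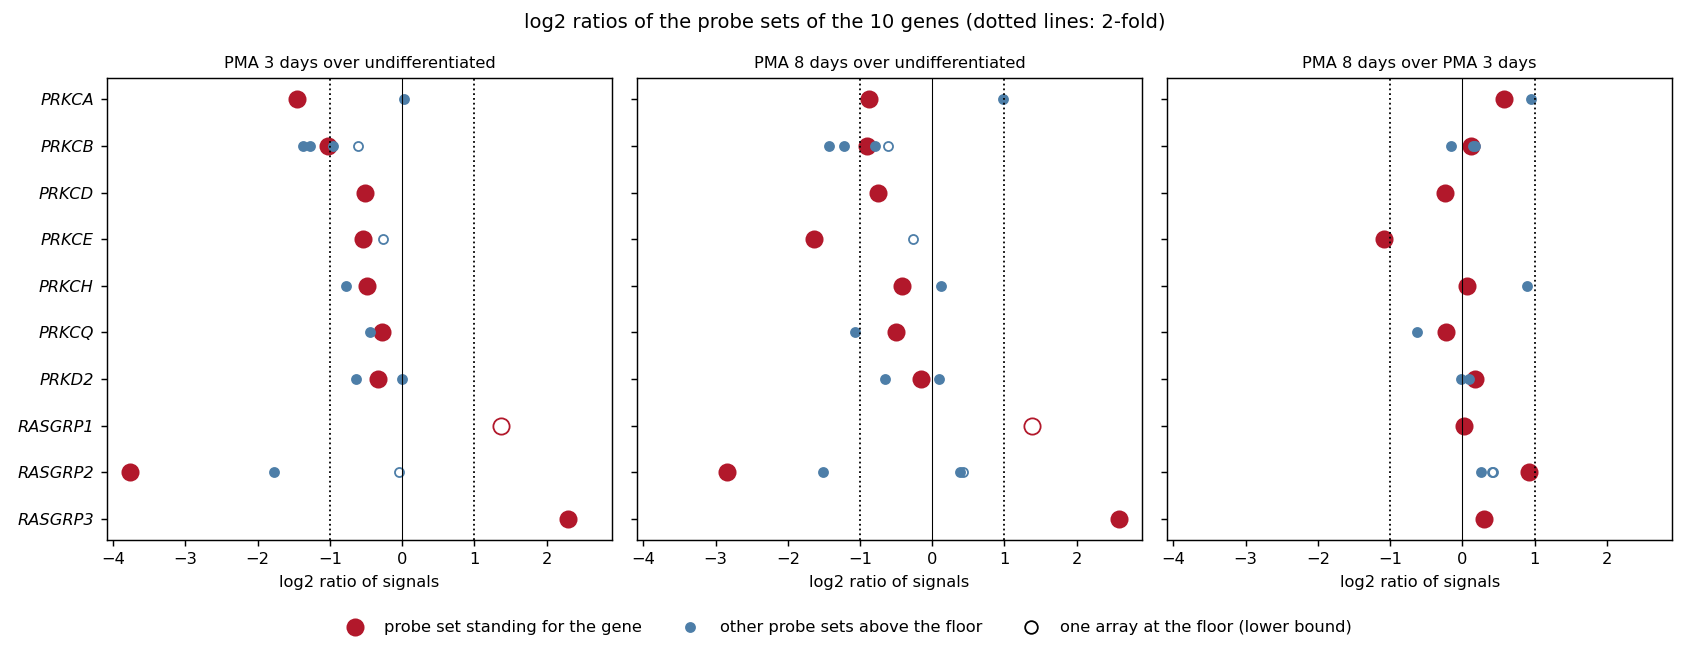
Log2 ratios (horizontal axis) of every probe set with a signal over the floor in the comparison, by gene, for 3-day PMA relative to undifferentiated cells, 8-day PMA relative to undifferentiated cells and 8-day relative to 3-day PMA cells. Large red points are the probe sets standing for the genes and open points are lower bounds. In both comparisons with undifferentiated cells the probe sets of PRKCB lie together below 0, while those of PRKCA and RASGRP2 are spread over more than 1 log2 unit.

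The calcium-independent PKC genes differed less, apart from PRKCE. PRKCE, an isoform needed for macrophage responses to endotoxin in mice, had 488 in undifferentiated cells, 334 in 3-day PMA cells and 158 in 8-day PMA cells by 226101_at. The signal was lower on each later array and in 8-day PMA cells lay just above the floor. PRKCE was within 2-fold in 3-day PMA cells (log2 -0.54) and 3.10-fold lower in 8-day PMA cells (log2 -1.63), each over undifferentiated. It was the 1 gene of the 10 that differed by 2-fold between the PMA arrays, 2.12-fold lower in 8-day PMA cells than in 3-day PMA cells (log2 -1.09), and 90 of 13066 genes, 0.689%, were as low. With the 60th percentile floor the 8-day PMA signal is below the floor and the ratios are bounds, lower by at least a log2 ratio of -0.90 over undifferentiated and -0.36 over 3-day PMA cells. Scaled to the poly-A controls, the ratio over 3-day PMA cells was -0.80. A second probe set, 236459_at, had 179.8 in undifferentiated cells and was below the floor in 3-day PMA cells (15.7) and 8-day PMA cells (14.0).

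PRKCD, which takes part in apoptosis and in activating the NADPH oxidase, had 1 probe set, 202545_at. It read 3722 in undifferentiated cells, 2616 in 3-day PMA cells and 2209 in 8-day PMA cells. The log2 ratios over undifferentiated were -0.51 in 3-day PMA cells and -0.75 in 8-day PMA cells, lower on both PMA arrays and under 2-fold, with 27.4% of tested genes as low in 3-day and 14.2% in 8-day PMA cells. PRKCH, found in blood and epithelial cells, had 856 in undifferentiated cells, 613 in 3-day PMA cells and 643 in 8-day PMA cells by 218764_at. Its second probe set, 206099_at, had 279 in undifferentiated cells, 163 in 3-day PMA cells and 302 in 8-day PMA cells. Both were lowest in 3-day PMA cells, with log2 ratios over undifferentiated of -0.48 for 218764_at and -0.77 for 206099_at. In 8-day PMA cells the ratios were -0.41 for 218764_at and 0.12 for 206099_at, on either side of 0.

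PRKCQ, the isoform that carries T-cell receptor signals to NF-kB, had 638 in undifferentiated cells, 526 in 3-day PMA cells and 449.7 in 8-day PMA cells by 210038_at. 210039_s_at had 434 in undifferentiated cells, 318 in 3-day PMA cells and 206 in 8-day PMA cells. Both were lower on each later array. The log2 ratios of 210038_at over undifferentiated were -0.28 in 3-day and -0.51 in 8-day PMA cells, and those of 210039_s_at were -0.45 in 3-day and -1.07 in 8-day PMA cells, so only 210039_s_at in 8-day PMA cells passed 2-fold. Of 3 probe sets listed for PRKCQ-AS1, a gene antisense to PRKCQ by name, 232001_at had 391 in undifferentiated cells and was below the floor in 3-day PMA cells (37.8) and 8-day PMA cells (67.7), and the others were below it throughout. Whether the PRKCQ probe sets read any of this RNA was not tested.

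PRKD2, a kinase that PKC phosphorylates and activates, stayed within 2-fold by all its probe sets. 38269_at had 1601 in undifferentiated cells, 1273 in 3-day PMA cells and 1434 in 8-day PMA cells. 209282_at had 483 in undifferentiated cells, 484 in 3-day PMA cells and 515 in 8-day PMA cells, and 241669_x_at had 290.2 in undifferentiated cells, 186 in 3-day PMA cells and 184 in 8-day PMA cells. The log2 ratios over undifferentiated ran from -0.64 to 0.0042 in 3-day PMA cells and from -0.66 to 0.094 in 8-day PMA cells.

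**Figure D3:**
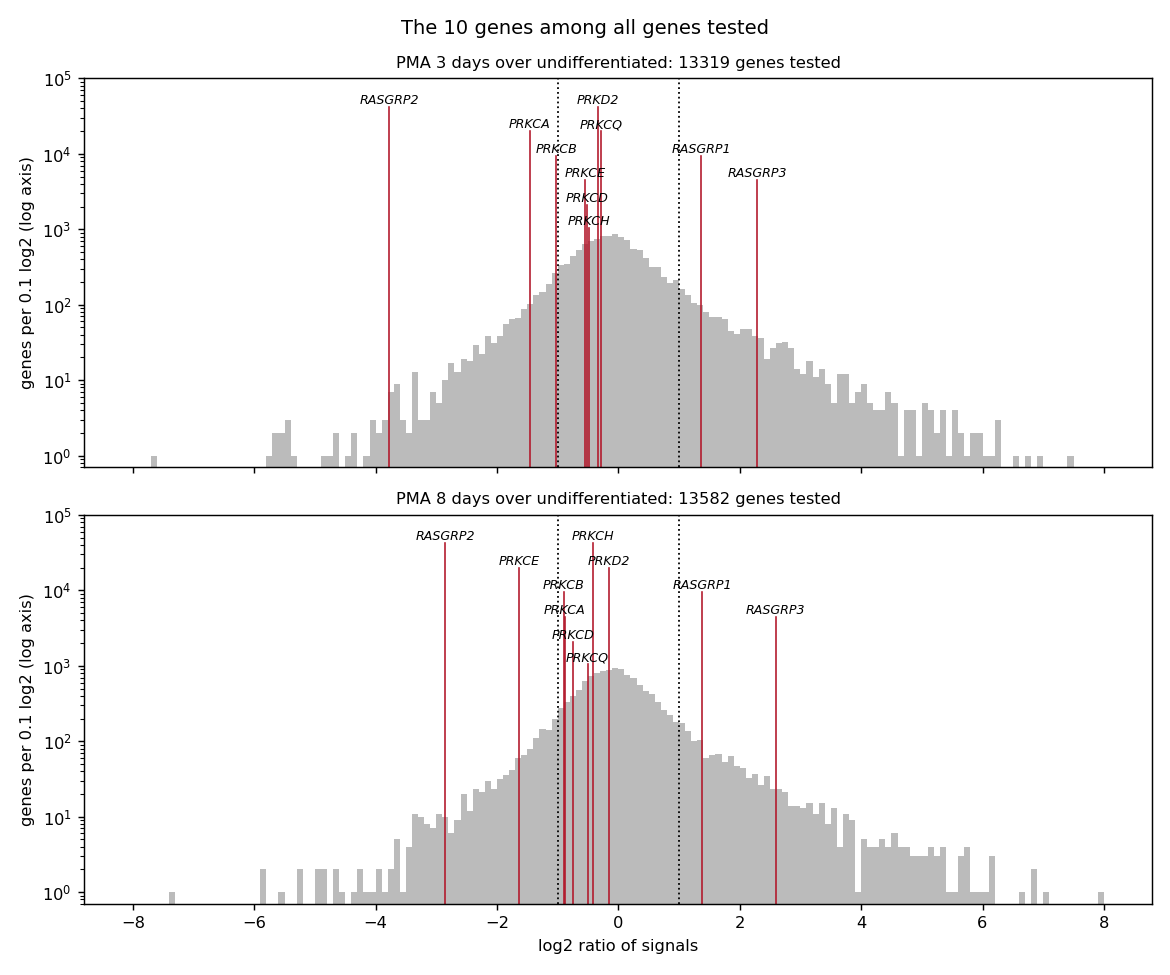
Distribution of log2 ratios over all genes tested (vertical log axis, genes per bin of 0.1 log2) for 3-day PMA relative to undifferentiated cells (top, 13319 genes) and 8-day PMA relative to undifferentiated cells (bottom, 13582 genes), with the 10 genes as red lines and 2-fold as dotted lines. RASGRP2 lies in the lower tail and RASGRP3 in the upper one. The PKC genes lie below 0 and mostly inside the 2-fold lines.

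Promoter sequence was compared because 3 kinase genes and RASGRP2 were lower on a PMA array while RASGRP1 and RASGRP3 were higher on both. RefSeq promoters of GRCh38.p14, from 250 bases before to 50 after a start site, matched all 10 genes. There were 16 of them, since PRKCD, PRKD2 and RASGRP3 have several starts. Those of the genes past 2-fold are shown 5′ to 3′ on the gene's strand, and of 4 RASGRP3 promoters the ones with the lowest and the highest share of G and C. Capitals mark the motifs found, of 5 searched on both strands.
PRKCA, chr17:66302363-66302662, plus strand: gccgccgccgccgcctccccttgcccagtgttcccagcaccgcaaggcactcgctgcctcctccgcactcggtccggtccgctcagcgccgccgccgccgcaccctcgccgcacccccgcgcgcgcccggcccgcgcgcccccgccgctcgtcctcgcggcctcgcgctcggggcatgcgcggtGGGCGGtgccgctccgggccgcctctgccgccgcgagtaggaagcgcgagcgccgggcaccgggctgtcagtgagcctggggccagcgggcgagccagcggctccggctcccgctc
PRKCB, chr16:23835733-23836032, plus strand: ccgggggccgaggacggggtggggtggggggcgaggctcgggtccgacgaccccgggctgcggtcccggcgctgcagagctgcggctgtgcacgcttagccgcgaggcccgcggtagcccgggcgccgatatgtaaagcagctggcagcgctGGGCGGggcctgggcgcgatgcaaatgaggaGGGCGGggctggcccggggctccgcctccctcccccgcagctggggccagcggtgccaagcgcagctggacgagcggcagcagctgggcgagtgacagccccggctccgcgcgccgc
PRKCE, chr2:45651425-45651724, plus strand: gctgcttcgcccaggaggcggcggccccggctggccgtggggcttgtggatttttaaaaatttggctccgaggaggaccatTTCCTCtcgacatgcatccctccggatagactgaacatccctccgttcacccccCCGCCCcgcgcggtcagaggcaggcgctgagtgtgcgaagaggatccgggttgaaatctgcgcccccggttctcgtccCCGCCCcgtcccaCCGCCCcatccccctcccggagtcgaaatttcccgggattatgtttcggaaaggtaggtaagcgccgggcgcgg
RASGRP2, chr11:64745299-64745598, minus strand: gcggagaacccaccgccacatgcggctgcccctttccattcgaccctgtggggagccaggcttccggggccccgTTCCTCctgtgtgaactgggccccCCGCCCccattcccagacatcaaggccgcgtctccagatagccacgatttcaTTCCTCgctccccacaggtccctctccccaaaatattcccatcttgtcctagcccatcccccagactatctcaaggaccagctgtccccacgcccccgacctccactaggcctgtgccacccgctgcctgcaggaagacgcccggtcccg
RASGRP1, chr15:38564765-38565064, minus strand: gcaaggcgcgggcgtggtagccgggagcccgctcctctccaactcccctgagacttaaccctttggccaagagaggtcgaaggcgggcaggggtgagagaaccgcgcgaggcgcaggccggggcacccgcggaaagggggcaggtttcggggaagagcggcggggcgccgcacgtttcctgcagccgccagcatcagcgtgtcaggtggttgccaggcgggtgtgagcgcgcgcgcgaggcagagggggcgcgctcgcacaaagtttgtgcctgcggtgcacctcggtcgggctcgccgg
RASGRP3, chr2:33436098-33436397, plus strand: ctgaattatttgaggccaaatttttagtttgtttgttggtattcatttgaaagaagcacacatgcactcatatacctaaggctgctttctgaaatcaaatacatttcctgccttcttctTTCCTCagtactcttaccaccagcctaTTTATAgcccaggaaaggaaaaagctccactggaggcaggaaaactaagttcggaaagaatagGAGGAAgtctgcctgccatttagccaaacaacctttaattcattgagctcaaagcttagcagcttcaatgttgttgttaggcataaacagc
RASGRP3, chr2:33476399-33476698, plus strand: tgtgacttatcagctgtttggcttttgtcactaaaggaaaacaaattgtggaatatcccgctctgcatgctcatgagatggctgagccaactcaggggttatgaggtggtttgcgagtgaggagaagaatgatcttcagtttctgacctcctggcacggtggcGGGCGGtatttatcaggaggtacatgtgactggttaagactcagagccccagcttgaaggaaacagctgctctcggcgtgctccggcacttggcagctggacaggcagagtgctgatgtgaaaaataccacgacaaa

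The motifs were the AP-1 site TGANTCA, through which phorbol esters are classically known to act on genes, the cyclic AMP response element TGACGTCA, the GC box GGGCGG, the TATA box TATAAA and GAGGAA, a core bound by the myeloid factor PU.1. No motif overlapped another in these windows. None of the 16 promoters held the AP-1 letters, which 7.71% of all 35116 promoters hold, and none held TGACGTCA, which 1.85% hold. GGGCGG was in 11 of 16, from 8 genes, against 45.0% of all promoters. PRKCA had it at -66 from the start site and PRKCB at -98 and -67. PRKCE held the reverse complement at -115, -37 and -24, and RASGRP2 at -152. RASGRP1 had none of the 5 motifs. GAGGAA was in 4 of 16, against 27.9% of all promoters. PRKCE had its reverse complement at -169 and PRKD2 at 5. RASGRP2 had its reverse complement at -176 and -100, and the first RASGRP3 promoter printed had it at -131 and, as GAGGAA, at -41. TATAAA was in 3 of 16, against 11.5%.

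The promoters of RASGRP3 had the lowest share of G and C among the 16, 39.7% to 50.3% over 4 starts, against a median of 58.7% over all promoters. PRKCQ, at 51.3%, and 1 of 3 PRKCD starts, at 57.7%, were below that median too. Of the other genes past 2-fold, PRKCA had 81.3%, PRKCB 77.7%, RASGRP1 71.3%, RASGRP2 65.0% and PRKCE 64.7%. The first RASGRP3 promoter held 1 CpG, against 52 in that of PRKCA. RASGRP1, which was higher on the PMA arrays like RASGRP3, had 36 CpGs, so the genes that were higher do not share this composition. Which start THP-1 cells use was not measured.

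Beyond the 10 genes, the family has further members, among them the atypical PKCs, which phorbol esters do not bind. PRKCZ, an atypical PKC, had 1242 in undifferentiated cells, 398 in 3-day PMA cells and 307 in 8-day PMA cells by its 1 probe set. That is 3.12-fold lower in 3-day PMA cells and 4.05-fold lower in 8-day PMA cells, each over undifferentiated, larger decreases than those of the PKC genes among the 10 by the probe sets standing for them. PRKCI, the other atypical isoform, was within 2-fold, with log2 ratios over undifferentiated of -0.46 in 3-day and -0.75 in 8-day PMA cells, and so was the protein kinase D gene PRKD3, with -0.51 in 3-day and -0.55 in 8-day PMA cells. PRKD1 and RASGRP4 were not above the floor on any array. Of the list of other C1-domain and PKC-like genes 8 of 15 were tested. In 3-day PMA relative to undifferentiated cells 2 were lower and none higher (median log2 -0.39), where 10.7% of all genes were lower and 10.3% higher (median -0.12). In 8-day PMA cells 2 were lower and 1 higher (median log2 -0.55), where 8.39% of all genes were lower and 9.72% higher (median -0.072). The second lower gene was PKN3, a PKC-related kinase, with 391 in undifferentiated cells and below the floor in 3-day PMA cells (19.9) and 8-day PMA cells (106), at least 2.61-fold lower. The higher one was CHN1, a Rac-inactivating chimaerin with a C1 domain, with 27.5 in undifferentiated cells, 199.3 in 3-day PMA cells and 310.2 in 8-day PMA cells, at least 2.07-fold higher in 8-day PMA cells.

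Upstream, phospholipase C genes make diacylglycerol and diacylglycerol kinase genes remove it. The phospholipase C list also holds PLCL1 and PLCL2, related genes whose products are regarded as lacking the enzyme activity. Of its 8 genes tested, these included, none passed 2-fold in 3-day PMA relative to undifferentiated cells (median log2 -0.19). In 8-day PMA cells 1 was higher and 1 lower (median log2 -0.40). PLCB2, the phospholipase of G-protein signalling in blood cells, had 273 in undifferentiated cells, 542 in 3-day PMA cells and 1159 in 8-day PMA cells, and was 4.25-fold higher in 8-day PMA cells than in undifferentiated cells and 2.14-fold higher than in 3-day PMA cells. PLCB1 was 2.08-fold lower in 8-day PMA relative to undifferentiated cells by 1 probe set (389 in undifferentiated and 187 in 8-day PMA cells). Its other probe sets were below the floor on every array. With the floor at the 60th percentile, or with ratios centred on the median of all genes, no phospholipase C gene was lower in 8-day PMA cells. Of 7 diacylglycerol kinase genes tested 1 was higher and 1 lower in 3-day PMA relative to undifferentiated cells (median -0.17). By its brightest probe set DGKZ was 2.09-fold higher (2344 in 3-day PMA cells, against 1124 in undifferentiated cells), while its second was near the floor (81.0 in 3-day PMA cells, against 154 in undifferentiated cells). DGKE was 2.31-fold lower in 3-day PMA cells and at least 3.21-fold lower in 8-day PMA cells, the only one past 2-fold of the 7 tested in 8-day PMA cells (median -0.12). In lists of this size the counts are near the shares of all genes: 10.3% higher and 10.7% lower in 3-day PMA cells, and 9.72% higher and 8.39% lower in 8-day PMA cells.

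Downstream, 4 of 20 Ras to ERK genes tested were higher and none lower in 3-day PMA relative to undifferentiated cells, and 16 stayed within 2-fold, with a median log2 ratio of 0.18, beside -0.12 for all genes. The counts were the same in 8-day PMA cells, with a median of 0.34, beside -0.072 for all genes. Of all genes tested 10.3% were higher in 3-day and 9.72% in 8-day PMA cells. SPRED1, an inhibitor of the Ras to ERK route, had 349 in undifferentiated cells, 2076 in 3-day PMA cells and 2190.4 in 8-day PMA cells, 5.95-fold higher in 3-day and 6.28-fold higher in 8-day PMA cells. SPRY2, another inhibitor of the route, had 2050.3 in undifferentiated cells, 6498 in 3-day PMA cells and 10516 in 8-day PMA cells, 3.17-fold higher in 3-day and 5.13-fold higher in 8-day PMA cells. The small GTPase RRAS was 2.36-fold higher in 3-day and 2.11-fold higher in 8-day PMA cells. RAP1A, a substrate of RASGRP2, was 2.32-fold higher in 3-day and 2.21-fold higher in 8-day PMA cells by its brightest probe set (13905 in undifferentiated cells, 32199 in 3-day PMA cells and 30799 in 8-day PMA cells) but lower by the next one above the floor (1234 in undifferentiated cells, 732 in 3-day PMA cells and 748 in 8-day PMA cells), so its direction is not settled. Scaled to the poly-A controls, 2 of 19 Ras to ERK genes were higher in 3-day PMA cells and the median was -0.12, beside -0.39 for all genes. In 8-day PMA cells that scaling left 4 of 20 higher and a median of 0.32, beside -0.089 for all genes. With the second-brightest probe set 9 genes of the list were tested and the medians lay close to those of all genes. In 3-day PMA cells 2 were higher and the median was -0.077, beside -0.125 for all genes. In 8-day PMA cells 1 was higher and the median was -0.063, beside -0.090 for all genes.

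Of PKC substrates and partners 17 were tested in 3-day PMA relative to undifferentiated cells, with 3 higher and 1 lower (median log2 0.43), beside 10.3% higher and 10.7% lower of all genes. In 8-day PMA cells 16 were tested, with 4 higher and none lower (median log2 0.31), beside 9.72% higher and 8.39% lower of all genes. Scaled to the poly-A controls, 2 of 17 were higher and 2 lower in 3-day PMA cells, with a median of 0.12. Without _s_at and _x_at probe sets 8 were tested. In 3-day PMA cells 1 of them was higher and 1 lower, with a median of -0.0087, beside -0.14 for all genes. In 8-day PMA cells 2 of them were higher and 1 lower, with a median of 0.19, beside -0.094 for all genes. PEA15, a phosphoprotein that holds ERK in the cytoplasm, had 5749 in undifferentiated cells, 21491 in 3-day PMA cells and 20304 in 8-day PMA cells, 3.74-fold higher in 3-day and 3.53-fold higher in 8-day PMA cells. MARCKSL1, an actin-binding PKC substrate, was 3.40-fold higher in 3-day and 3.07-fold higher in 8-day PMA cells. PHLPP2, a phosphatase that acts on PKC, was 2.09-fold higher in 8-day PMA cells. ADD3, an adducin of the membrane skeleton, was 2.60-fold lower in 3-day PMA cells and within 2-fold in 8-day PMA cells (log2 -0.83), and its 4 probe sets were all lower in 3-day PMA cells. A further list held genes on the route from PKC to NF-kB and genes around it, such as SYK, BTK, NFKBIA and TNFAIP3. Of its 15 genes tested, 1 was higher in 3-day PMA relative to undifferentiated cells and 2 in 8-day PMA cells. None was lower (median log2 0.097 in 3-day and 0.15 in 8-day PMA cells). Those counts are near the 10.3% of all genes that were higher in 3-day and the 9.72% in 8-day PMA cells, and with poly-A scaling the 3-day median was -0.21. MALT1, the paracaspase of the CARD complexes, had 922 in undifferentiated cells, 3439 in 3-day PMA cells and 2722 in 8-day PMA cells, 3.73-fold higher in 3-day and 2.95-fold higher in 8-day PMA cells, and its 3 probe sets went the same way. TNFAIP3, a brake on NF-kB, was 2.34-fold higher in 8-day PMA cells.

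**Figure D4:**
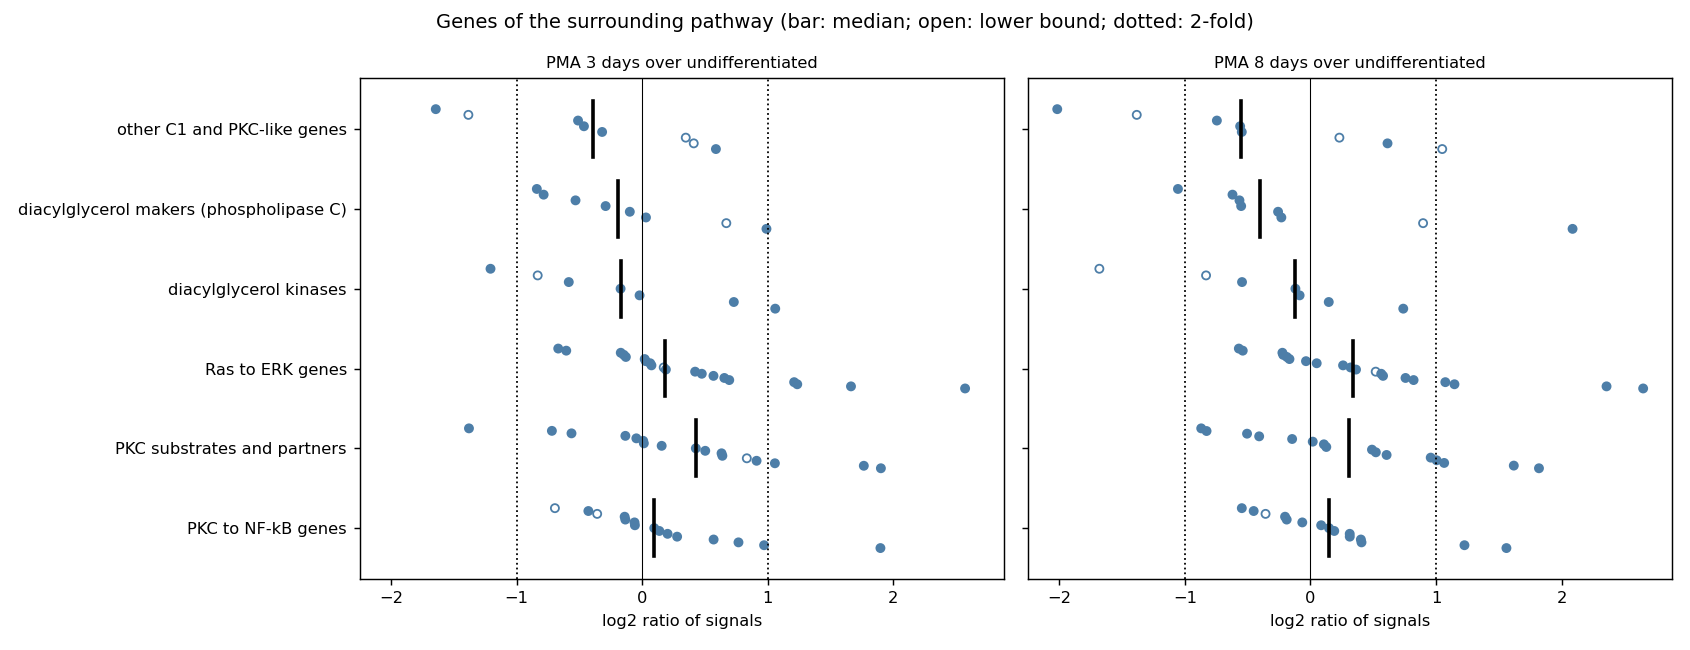
Log2 ratios (horizontal axis) of the tested genes of 6 pathway lists in 3-day PMA cells (left) and 8-day PMA cells (right), both over undifferentiated, 1 point per gene with list medians as bars and lower bounds as open points. SPRED1 is the rightmost gene of the Ras to ERK list on both sides and PRKCZ the leftmost of the C1 list.

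Genes with courses most like those of the most changed members were found by distance over the log2 ratios in 3-day and 8-day PMA cells, both over undifferentiated, among 13785 genes above the floor on at least 1 array. Nearest to RASGRP2 were CLSTN2, at a distance of 0.109 log2 units, INPP4B, a phosphoinositide phosphatase (0.141), and KIT, the stem cell factor receptor (0.165). Nearest to RASGRP3 were ANKH, a membrane transporter (0.0849), CCDC30 (0.108) and ENG, a co-receptor for TGF-beta ligands (0.113). With 3 arrays such likeness is easily met and is a description only.

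**Figure D5:**
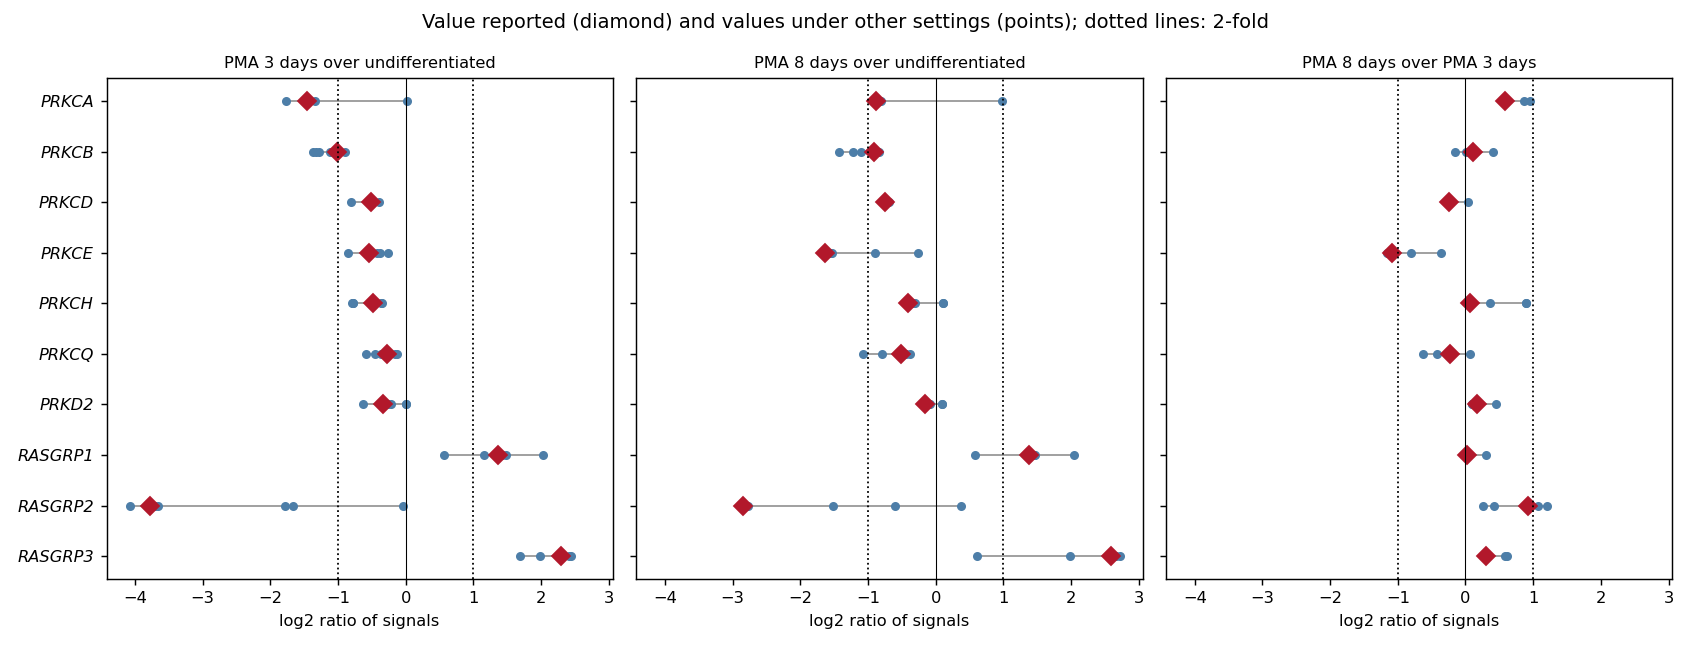
Log2 ratios (horizontal axis) of the 10 genes in the 3 comparisons as reported (red diamonds) and under each other setting that gave a value (blue points), with 2-fold as dotted lines. RASGRP2 in 8-day PMA relative to undifferentiated cells runs from -2.87 to 0.38. PRKCA in 3-day PMA relative to undifferentiated cells runs from -1.77 to 0.024, and PRKCD there from -0.81 to -0.39. PRKCD has 1 probe set, above every floor, so settings on the floor or the probe set could not move it. Its narrower range is therefore no sign of a steadier value.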

How the data were processed

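Total RNA of 3 THP-1 cultures, 1 per group, was measured on 1-colour oligonucleotide arrays. The deposited values are linear intensity values made with MAS5, per the submitters' processing notes; version and settings are not given in the sources used here. With the top and bottom 2% trimmed, the mean was 1000 on each array, as scaling to a common target would leave. The labels' protocols give 200 ng of RNA per array.

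Of 54675 probe sets 62 controls were set aside. Of the rest 41091 had 1 gene in the platform table, 1801 several and 11721 none, and Entrez IDs matched 41037 to the RefSeq gene table of GRCh38.p14, changing 0 symbols. A gene's probe set was the one with the highest mean log2 signal after flooring, and a gene was tested if that probe set exceeded the floor on either array compared. Besides all probe sets of the 10 genes, the text names up to 4 genes past 2-fold per pathway list, the isoforms in the C1 list and 3 nearest genes for the 2 most changed members. Markers were fixed as lists. List genes without a probe set of 1 gene are not analysed here. The members and lists were chosen with earlier results of these data known. With 1 array per group no test was possible. The steps were tested on simulated data. Work was done in Python 3.11.15 with matplotlib 3.10.9, scipy 1.17.1, pandas 2.3.3 and numpy 2.4.6.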

Additional observations from a re-analysis of the deposited data

How the results depend on the processing

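The number of arrays limits precision: there is 1 per group, so no setting below is a test. No paired analysis was possible because no group has a second sample. Of 278 ratios of single members recomputed under 10 other settings, 238 moved by less than the SD among probe sets of a gene, 38 by more, and 2 of those past 2-fold changed sign. The signs turned for PRKCA in 3-day PMA relative to undifferentiated cells with the second-brightest probe set (0.024) and for RASGRP2 in 8-day PMA relative to undifferentiated cells without _s_at and _x_at probe sets (0.38), which leaves RASGRP2 only dim probe sets. Part of the 238 was fixed in advance. Settings that only change which dim genes are tested leave a ratio as it is. Centring moves each ratio by the median of all genes, which is less than the SD. Poly-A scaling moves ratios of signals above the floor by 1 amount per comparison. The split into 238 and 38 is thus no measure of robustness. Of 120 counts, 30 moved by over 1.5 times. Members higher in 3-day PMA relative to undifferentiated cells were 1 with the 60th percentile floor, the median of probe sets, no _s_at or _x_at probe sets or genes above the floor on both arrays, and 0 with the second-brightest probe set, against 2 as reported. The same counts, 1 and 0 against 2, came out under the same settings in 8-day PMA relative to undifferentiated cells. Members lower in 8-day PMA relative to undifferentiated cells were 1 with the 60th percentile floor or the median of probe sets, against 2. In 8-day relative to 3-day PMA cells members higher were 1 (RASGRP2) under poly-A scaling or the median of probe sets, against 0. In that comparison members lower were 0 under these settings, the 60th percentile floor and the second-brightest probe set, against 1 (PRKCE). The second-brightest probe set exists for fewer genes (6508 tested in 3-day PMA relative to undifferentiated cells, 6590 in 8-day PMA relative to undifferentiated cells and 6288 in 8-day relative to 3-day PMA cells), and gave 633 genes higher and 650 lower in 3-day PMA relative to undifferentiated cells, 606 higher and 567 lower in 8-day PMA relative to undifferentiated cells and 88 higher and 55 lower in 8-day relative to 3-day PMA cells. Over all genes the counts as reported were 1374 higher and 1422 lower in 3-day PMA relative to undifferentiated cells, 1320 higher and 1140 lower in 8-day PMA relative to undifferentiated cells, and 179 higher and 122 lower in 8-day relative to 3-day PMA cells. Poly-A scaling gave 2455 lower in 3-day PMA relative to undifferentiated cells, and 510 higher and 43 lower in 8-day relative to 3-day PMA cells. There the 60th percentile floor gave 97 higher, and the 40th percentile floor 377 higher and 188 lower. Fewer genes tested, a higher or lower floor and scaling to the poly-A controls bring shifts by construction. Apart from these shifts the cause was not tested.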
